A study of Mus musculus with 40 samples.

Results

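The mitochondrial ribosomal protein genes are the nuclear genes whose symbols start with Mrpl (large subunit) or Mrps (small subunit) followed by a number. They were taken by symbol in each of 4 tables of 3′-tag RNA sequencing, and a gene was tested in a table when its mean normalized count there was 10 or more. Of 20078 gene symbols listed in at least 1 table, 78 were mitochondrial ribosomal protein genes, 74 of these were tested in at least 1 table, out of 12574 tested genes of any kind, and 72 were tested in all 4. RNA came from male and female C57BL/6J offspring, from the liver and from gonadal fat (gonadal white adipose tissue, gWAT). Their fathers had received nicotine, or a control treatment that the column headers call DMSO. The labels give 8 groups of 5 samples by tissue, sex and exposure, all of the same strain and the same batch number, without doses, ages, litters or the number of fathers, so the p-values reflect only how these samples vary, which may be technical in part. Libraries of 39 samples were analysed, since the male gWAT table has 4 control columns, whose names do not say which labelled sample each one is; they are numbered here only to name them.

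Mitochondria carry their own ribosome, which translates the few mRNAs of the mitochondrial genome into membrane subunits of the respiratory chain and ATP synthase. Its ribosomal RNAs are encoded by mitochondrial DNA, while its protein subunits are encoded in the nucleus, made in the cytosol and imported, so assembly needs matched supply from both genomes. Fat cells raise mitochondrial content when they take on thermogenic (brown or beige) character, and the liver is rich in mitochondria. Members are counted here by the letter in their symbol, although Mrps18a and Mrps30 have been placed in the large subunit in structures of the ribosome.

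RefSeq promoter windows (GRCm38.p6), from 250 bases before to 50 bases after an annotated start, were available for 69 of the 78 genes, in 75 windows. Exact matches on both strands were counted for 3 motifs of factors known to act at promoters of mitochondrial genes. The ETS core CCGGAAG, bound by GABPA, was found in 26 member windows (34.7%) against 8.86% of all 32851 windows. The YY1 core AAGATGGC was found in 12 member windows (16.0%) against 2.75% of all windows. The full palindrome of NRF1, spelled in capitals in the Mrpl9 window shown here, was found in 3 member windows (4.0%) against 0.971% of all windows. The ETS and YY1 cores can share the letters AAG, and in 0 member windows did they. A match is a description of these letters and not evidence of binding. Of the 17 windows of members that rose in female gWAT, as given further on, 3 held the ETS core, 2 the YY1 core and 1 the NRF1 palindrome, and of 6 windows of members that fell, 2, 1 and 0 did. Windows are shown for 3 members that rose there (Mrpl9, with the palindrome; Mrps18a, with an ETS and a YY1 core; Mrpl16, with none of the 3), for Mrpl52, which fell, and for Mrpl37, which stands apart in male gWAT. Each reads 5′ to 3′ along the gene's strand, and capitals mark the matches.
Mrpl9 (chr3:94443086-94443385, plus strand): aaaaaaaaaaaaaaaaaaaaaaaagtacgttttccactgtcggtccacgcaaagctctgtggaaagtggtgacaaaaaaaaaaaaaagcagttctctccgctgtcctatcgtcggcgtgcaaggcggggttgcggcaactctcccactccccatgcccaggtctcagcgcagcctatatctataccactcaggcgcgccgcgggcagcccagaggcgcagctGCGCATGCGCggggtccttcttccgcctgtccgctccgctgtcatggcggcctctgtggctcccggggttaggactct
Mrps18a (chr17:46110754-46111053, plus strand): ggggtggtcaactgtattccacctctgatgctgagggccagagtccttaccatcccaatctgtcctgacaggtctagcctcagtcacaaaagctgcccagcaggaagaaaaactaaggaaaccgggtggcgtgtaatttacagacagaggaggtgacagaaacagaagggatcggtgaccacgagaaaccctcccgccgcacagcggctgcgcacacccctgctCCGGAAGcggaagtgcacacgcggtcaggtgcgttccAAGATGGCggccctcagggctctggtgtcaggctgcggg
Mrpl16 (chr19:11770165-11770464, plus strand): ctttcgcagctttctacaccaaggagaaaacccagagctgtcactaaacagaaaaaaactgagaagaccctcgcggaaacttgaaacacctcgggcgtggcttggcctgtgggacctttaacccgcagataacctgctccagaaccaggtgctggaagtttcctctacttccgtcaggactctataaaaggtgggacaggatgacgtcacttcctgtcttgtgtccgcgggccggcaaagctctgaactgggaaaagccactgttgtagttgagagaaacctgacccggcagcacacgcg
Mrpl52 (chr14:54426659-54426958, plus strand): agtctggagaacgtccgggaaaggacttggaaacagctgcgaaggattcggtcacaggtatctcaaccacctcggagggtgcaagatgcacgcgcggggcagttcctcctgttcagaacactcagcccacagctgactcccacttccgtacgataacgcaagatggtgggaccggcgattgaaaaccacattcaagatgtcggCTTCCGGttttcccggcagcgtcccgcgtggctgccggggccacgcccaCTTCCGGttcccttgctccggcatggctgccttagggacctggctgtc
Mrpl37 (chr4:107066817-107067116, minus strand): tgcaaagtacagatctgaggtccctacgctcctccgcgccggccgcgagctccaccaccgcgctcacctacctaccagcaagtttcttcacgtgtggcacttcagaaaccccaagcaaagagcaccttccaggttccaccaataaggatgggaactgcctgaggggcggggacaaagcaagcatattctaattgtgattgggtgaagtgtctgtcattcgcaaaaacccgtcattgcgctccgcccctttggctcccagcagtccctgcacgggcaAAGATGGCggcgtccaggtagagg

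The libraries held 1543208 to 2239073 reads assigned to genes. Markers of the labelled tissues were abundant: 8 hepatocyte markers summed to 70859 to 117080 normalized counts across liver libraries, and 8 adipocyte markers to 29190 to 117440 across gWAT libraries. Some libraries also held transcripts of other tissues. Skeletal muscle markers reached 31854 in female gWAT control library 2 and 8434 in male liver nicotine library 4, pancreas markers reached 8482 in male liver nicotine library 2, and epididymis markers reached 27800 and 20452 in male gWAT control library 1 and nicotine library 1. In such bulk samples, fewer cells of a type and less RNA per cell cannot be told apart. Values are DESeq2 normalized counts given as mean ± SD, a change is the nicotine mean less the control mean of log2(normalized count + 1), a scale that understates the change of low genes, and adjusted p-values come from limma over all tested genes of the table with a threshold of 0.05.

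Nearly all calls among mitochondrial ribosomal protein genes came from female gWAT. There 24 of 73 tested members passed the threshold, 17 higher and 7 lower with paternal nicotine, beside 25.2% of all 10532 genes (12.4% higher and 12.8% lower). Their median log2 change was 0.22, against -0.03 over all genes. In female liver 1 of 74 members passed, beside 3.28% of 9173 genes, with a median of -0.02 against -0.00. In male liver 0 of 74 passed in limma, beside 0.055% of 9093 genes, with a median of 0.06 against 0.00; 8 members had an unadjusted p under 0.05, beside 14.5% of all genes. There edgeR called 0 members (0.033% of all genes) and DESeq2 called 2 (2.05%). In male gWAT 0 of 73 passed in limma, edgeR or DESeq2, beside 0.0% of 11210 genes, with 2 members (and 1.62% of all genes) at an unadjusted p under 0.05 and a median of 0.11 against 0.01. The share of members called in female gWAT was 32.9%, and the spread of their changes, from -1.26 to 1.47, was wider than in male gWAT, where it ran from -0.40 to 0.65. Members that were listed but too low to test were Mrps11 in all 4 tables, Mrpl23 and Mrps36 in the same 3 (female liver, female gWAT and male gWAT), Mrps18b in female liver and male gWAT, Mrpl22 in female gWAT and Mrpl9 in male gWAT. Nearest the minimum in female gWAT, Mrps10 was tested at a mean of 14.6 and Mrpl22 was left out at 7.97.

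**Figure D1:**
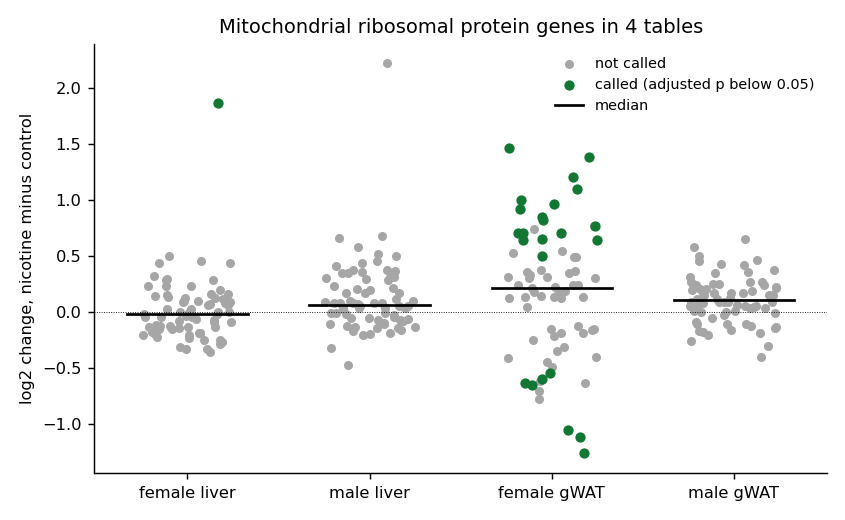
Log2 change (nicotine minus control) of each tested mitochondrial ribosomal protein gene in the 4 tables; each point is a gene, green points passed an adjusted p of 0.05, black bars are medians, and sideways position has no meaning. Called genes lie on both sides of 0 in female gWAT (17 higher, 7 lower), and 1 gene is called in female liver.

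The first comparison asked how daughters' gonadal fat differed with the father's exposure. Among large subunit genes, 11 of 47 rose and 4 fell. Mrpl16 (chr19:11770391-11774960, plus strand), the counterpart of bacterial L16, measured 32.3, 39.4, 53.3, 47.6 and 42.2 normalized counts in the 5 control libraries and 76.8, 100.2, 115, 121 and 90.0 in the 5 nicotine libraries. All nicotine libraries lay above all controls, a mean of 43.0 ± 7.97 in control and 101 ± 18.2 in nicotine libraries (log2 1.21 ± 0.19 (SE), adjusted p = 0.00072). Mrpl47 (chr3:32725397-32737605, minus strand), which stands in the place of bacterial L29 near the tunnel where the new chain leaves, measured 20.6, 25.7, 15.7, 12.8 and 19.9 normalized counts in the 5 control libraries and 37.8, 54.3, 63.6, 42.1 and 56.3 in the 5 nicotine libraries. Its groups did not overlap either (log2 1.39 ± 0.23 (SE), adjusted p = 0.00113), and its transcript end overlaps Actl6a on the opposite strand. Mrpl9 (chr3:94443318-94451130, plus strand) had the highest log2 change, on few reads and tested only through its nicotine libraries, since its control mean of 8.13 is under the minimum; it measured 8.82, 4.58, 10.5, 11.0 and 5.80 normalized counts in the 5 control libraries and 34.4, 25.4, 11.8, 26.4 and 24.4 in the 5 nicotine libraries. Its lowest nicotine library was barely above its highest control (log2 1.47 ± 0.36 (SE), adjusted p = 0.00935).

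Further large subunit genes rose. Mrpl10, at the base of the stalk that recruits translation factors, went from 31.9 ± 5.81 to 61.2 ± 10.8 (log2 0.92 ± 0.20 (SE), adjusted p = 0.00464), without overlap of the groups. Mrpl12, the flexible part of the same stalk, which also binds the mitochondrial RNA polymerase, measured 109.8, 81.5, 90.8, 82.4 and 67.1 normalized counts in the 5 control libraries and 82.5, 199, 208, 167 and 142 in the 5 nicotine libraries. Nicotine library 1 lay within the control range, and the other 4 nicotine libraries were above every control (log2 0.83 ± 0.24 (SE), adjusted p = 0.0212); the call was lost without control library 5 or without nicotine library 2, 3 or 4 (adjusted p up to 0.0592). Mrpl1, of the opposite stalk, was 29.2 ± 6.21 in control and 58.9 ± 19.5 in nicotine libraries (log2 0.97 ± 0.23 (SE), adjusted p = 0.00889), again without overlap. Mrpl11, also of the factor-binding stalk base, was at log2 -0.15 and did not pass (adjusted p = 0.659). Mrpl17, Mrpl30 and Mrpl50 also rose without overlap, with log2 changes of 0.71, 0.50 and 0.65, while Mrpl18 (0.65) and Mrpl42 (0.77) rose with overlapping groups. Mrpl17, Mrpl18 and Mrpl30 have bacterial counterparts and Mrpl42 and Mrpl50 are specific to mitochondria. Mrpl18 overlaps Tcp1 on the opposite strand.

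The large subunit genes that fell were Mrpl52, Mrpl54, Mrpl33 and Mrpl20. Mrpl52 (chr14:54426909-54429756, plus strand), a protein found only in mitochondrial ribosomes, measured 140.2, 154, 100.4, 127 and 87.8 normalized counts in the 5 control libraries and 52.7, 27.8, 62.7, 51.7 and 60.0 in the 5 nicotine libraries. Every nicotine library was below every control (log2 -1.26 ± 0.24 (SE), adjusted p = 0.00205). Mrpl54 (chr10:81264713-81266934, minus strand), also specific to mitochondria, measured 89.2, 102, 67.3, 108 and 63.8 normalized counts in the 5 control libraries and 34.4, 36.2, 64.6, 19.2 and 52.5 in the 5 nicotine libraries. Nicotine library 3 was above the lowest control and the other 4 nicotine libraries were below every control (log2 -1.12 ± 0.29 (SE), adjusted p = 0.012). Mrpl33 fell from 129 ± 19.0 to 83.9 ± 21.8 (adjusted p = 0.0267) and Mrpl20 from 231 ± 45.8 to 154 ± 42.1 (adjusted p = 0.0427), both with overlapping groups and both counterparts of bacterial proteins. Of the other large subunit genes, 32 did not pass, among them Mrpl3, the counterpart of bacterial L3, with a log2 change of 0.18 (adjusted p = 0.467) and Mrpl58, a release enzyme built into the large subunit (0.49, adjusted p = 0.246).

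Among small subunit genes, 6 of 26 rose and 3 fell. Mrps31 (chr8:22411361-22429665, plus strand), a protein without a bacterial counterpart, measured 19.6, 20.2, 15.7, 27.5 and 15.7 normalized counts in the 5 control libraries and 48.2, 49.5, 42.7, 37.3 and 37.5 in the 5 nicotine libraries. The groups were apart, with a nicotine mean 2.18 times the control mean (log2 1.10 ± 0.21 (SE), adjusted p = 0.00265). Mrps9, the counterpart of bacterial S9, was 30.1 ± 5.64 in control and 61.5 ± 13.5 in nicotine libraries without overlap (log2 1.00 ± 0.21 (SE), adjusted p = 0.00373). Mrps2 rose by 0.71 on the log2 scale without overlap, and Mrps18a (0.85), Mrps15 (0.71) and Mrps5 (0.64) rose with overlap; all 4 are related to bacterial proteins of the same number. Mrps6 (chr16:92058270-92112227, plus strand) measured 258, 326, 283, 403 and 250.1 normalized counts in the 5 control libraries and 68.8, 185, 215, 137 and 161 in the 5 nicotine libraries. All nicotine libraries were below all controls (log2 -1.06 ± 0.26 (SE), adjusted p = 0.0104). The gene encloses Slc5a3 on the same strand, so reads of the 2 cannot be assigned by position alone. Mrps14 fell from 119 ± 18.0 to 80.6 ± 9.56 without overlap (adjusted p = 0.0256), and Mrps24 from 103 ± 26.2 to 65.3 ± 16.9 with overlap (adjusted p = 0.0401). Mrps12, a protein of the decoding centre, was at log2 -0.61 and did not pass (adjusted p = 0.0663).

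**Figure D2:**
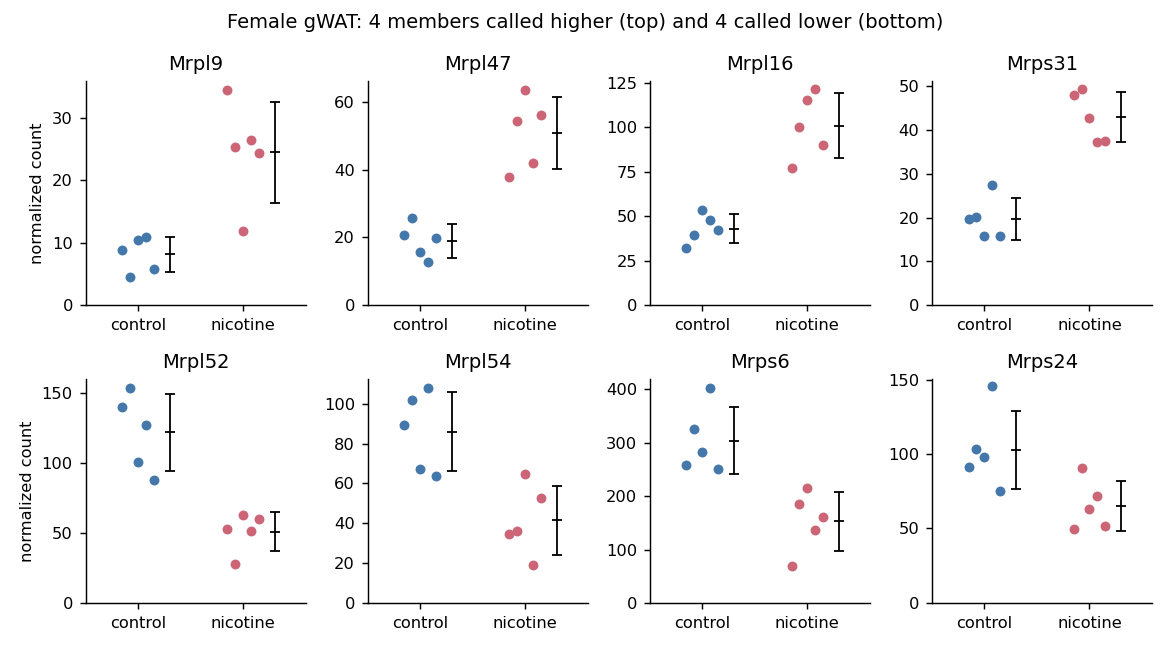
Normalized counts of 8 mitochondrial ribosomal protein genes in female gWAT; each point is 1 library (5 control in blue, 5 nicotine in red), and the bar beside each group is its mean ± SD. Mrpl9, Mrpl47, Mrpl16 and Mrps31 were higher in every nicotine library than in any control, and Mrpl52 and Mrps6 were lower in every one.

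Groups did not overlap for 11 members that were higher, beside 8.48% of all genes, and for 4 that were lower, beside 8.19%. The 11 include Mrpl9, which was tested only through its nicotine libraries. Of the 24 called members, 14 were called in each of the 10 fits that left out 1 library; the others, Mrpl12, Mrpl18, Mrpl20, Mrpl30, Mrpl33, Mrps5, Mrps14, Mrps15, Mrps18a and Mrps24, missed the threshold in at least 3 of them. The count ranged from 16 (without control library 4 or nicotine library 4) to 22 (without nicotine library 1). The number of all genes called moved too. It was 2013 of 10451 without control library 4, 1954 of 10572 without nicotine library 4 and 2768 of 10536 without nicotine library 1. The same 24 were called by edgeR on recovered reads, beside 24.3% of all genes, and in the authors' deposited table, beside 2903 genes of any kind. At an unadjusted p under 0.05 there were 31 members, beside 38.2% of all genes. The median change of the members was 0.07 without nicotine library 3 and 0.33 without nicotine library 1. Genes of 9 of the 24 overlap another gene on the opposite strand, as do 36 of all 78. For Mrpl9, Mrpl12, Mrpl18 and Mrps9 the overlap does not reach the gene's annotated 3′ end. For Mrpl10, Mrpl17, Mrpl33, Mrpl47 and Mrps18a it does, and 3′ tags come from that end. The use of strand is not given in the sources used here, so reads from the stretches that such pairs share cannot be told apart. Mrpl33, Mrps6 and Mrps24 also overlap genes on the same strand.

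The direction of the group in female gWAT depended on the scale. The 2 mitochondrial ribosomal RNAs, mt-Rnr1 and mt-Rnr2, took 8.23% to 13.0% of reads in control libraries and 19.3% to 32.5% in nicotine libraries, without overlap. When recovered reads were scaled by each library's total, which those RNAs enter, the median over all genes moved to -0.36. On that scale 21 members were called, 6 higher and 15 lower, beside 29.7% of all genes (4.57% higher and 25.1% lower), with a median of -0.12. Relative to the median of all genes, the members' median was higher by 0.24 on the DESeq2 scale and by 0.23 on the total-read scale. A change of scale moves all genes of a library nearly alike, so this gap could hardly change and is no separate check. Mrpl9, Mrpl10, Mrpl16, Mrpl47, Mrps9 and Mrps31 were called higher on both scales. All 7 members named as lower were called lower on both, which a scale that lowers nearly all changes could hardly alter. The sum of all members' normalized counts was 4569 ± 412 in control and 4920 ± 879 in nicotine libraries, groups that overlapped.

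The called members also differed in transcript length. The 7 that fell had a median annotated length of 764 bases (418 to 2999), with 6 under 1000 bases, and the 17 that rose had a median of 1515 bases (666 to 7300), with 4 under 1000. Across the 73 members, the Spearman correlation of log2 change with length was 0.32, and across 9990 genes with a length it was 0.22; genes are not independent replicates. After each library's trend on length and GC content was removed, 27 members were called, 24 higher and 3 lower (Mrpl52, Mrps14 and Mrpl57), beside 22.2% of 9990 genes (12.6% higher and 9.56% lower). Of these, 18 were among the 24 called before, and Mrpl54, Mrps6, Mrps24, Mrpl33, Mrpl20 and Mrps5 were no longer called. Mrpl54, for example, moved to -0.51 (adjusted p = 0.123) and Mrpl16 to 1.42 (adjusted p = 0.000382). In male gWAT the correlation across 73 members had the other sign, -0.44, as did that across 10646 genes with a length, -0.18.

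**Figure D3:**
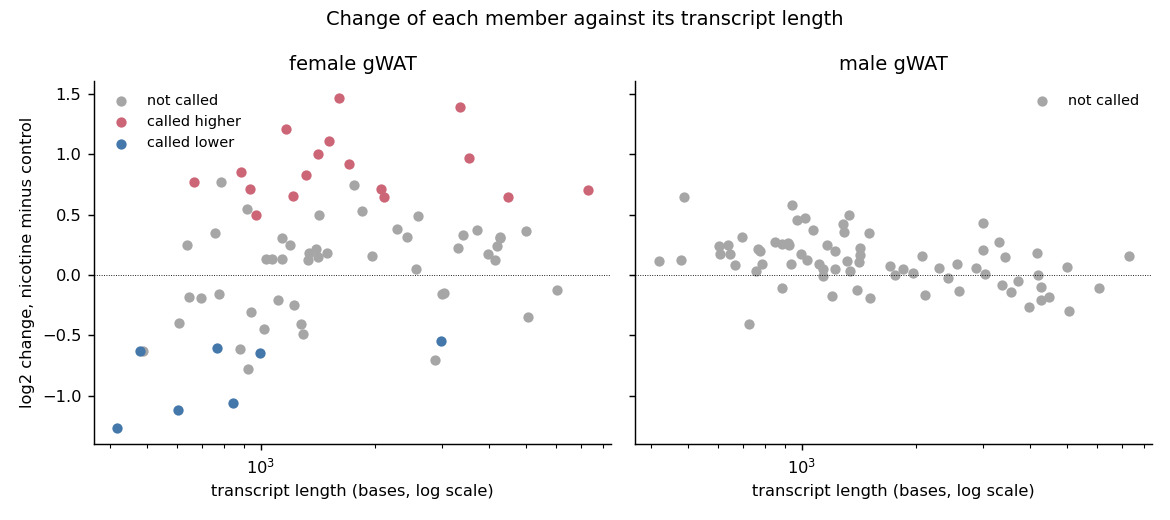
Log2 change (nicotine minus control) of each tested member against the length of its annotated transcript, on a log axis, in female gWAT (left) and male gWAT (right). The transcript was chosen by coding and principal status before length. In female gWAT 6 of the 7 genes called lower are shorter than 1000 bases, and no gene is called in male gWAT.

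Markers of other cell types were summed in the same libraries. Of 9 macrophage markers, 8 were listed (Clec4f was not), and they summed to 759 to 1477 normalized counts in female gWAT controls and to 262 to 486 in nicotine libraries, without overlap. For 6 markers of brown and beige fat cells the sums ran from 381 to 1156 in controls and from 294 to 4502 in nicotine libraries, groups that overlapped, and nicotine library 3, with 4502, also had the highest median of members over the control mean (0.59 on the log2 scale). Nicotine library 1, with 1366, was above every control and had a member median of -0.11. In nicotine libraries 2, 4 and 5, with 2224, 294 and 1672, the member median was 0.33, 0.15 and 0.19. For 6 fibroblast and progenitor markers the sums were 4578 to 8877 in controls and 1966 to 3652 in nicotine libraries 2 to 5, while nicotine library 1, at 6275, had the lowest member median of the nicotine libraries (-0.11). The part of these cells in the result was not tested.

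Other genes of mitochondrial gene expression in female gWAT moved in both directions, and their counts stand beside 12.4% of all genes higher and 12.8% lower. Both mitochondrial ribosomal RNAs rose, mt-Rnr2 from 113120 ± 25079 to 397080 ± 135380 normalized counts (log2 1.77, adjusted p = 0.00946) and mt-Rnr1 from 74750 ± 19777 to 181570 ± 52281 normalized counts (log2 1.28, adjusted p = 0.0251). Of 4 tested subunit genes with other symbols, 2 rose, Aurkaip1 (log2 0.50, adjusted p = 0.0322) and the GTP-binding Dap3 (log2 0.50, adjusted p = 0.0473). Of 18 assembly and rRNA modification genes, 0 rose and 1 fell, Malsu1, which keeps the large subunit from joining too early (log2 -1.12, adjusted p = 0.001). Of 14 translation factors, 2 rose, the initiation factor Mtif2 (log2 1.34, adjusted p = 0.00102) and the Cox1 translational activator Taco1 (log2 2.07, adjusted p = 0.00333), and 1 fell, the RNA-binding Slirp (log2 -0.62, adjusted p = 0.0401). None of 16 aminoacyl-tRNA synthetase genes passed in limma (lowest adjusted p = 0.0592), and 2 had an unadjusted p under 0.05, beside 38.2% of all genes. Of 13 transcription, replication and RNA processing genes, the RNA exonuclease Pnpt1 (log2 1.26) and its helicase partner Supv3l1 (1.17) rose and the mitochondrial DNA packaging factor Tfam fell (-0.60).

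Of 9 nuclear regulators, 2 rose, and both are coactivators that drive mitochondrial gene programmes. Ppargc1b went from 37.3 ± 16.5 to 180.2 ± 41.8 normalized counts (log2 2.35, adjusted p = 0.000236), and Ppargc1a from 18.5 ± 9.06 to 58.7 ± 22.3 normalized counts (log2 1.64, adjusted p = 0.00301). Of 18 import, chaperone and inner membrane genes, 5 rose and 0 fell, led by the crista organizer Immt (log2 1.44, adjusted p = 0.000383) and the mitochondrial Hsp70 Hspa9 (log2 1.46, adjusted p = 0.000459). By total reads 3 of the 18 were called higher and 1 lower, beside 4.57% of all genes higher and 25.1% lower. Of 83 nuclear-encoded respiratory chain and ATP synthase subunits, 10 rose and 17 fell, with a median of -0.11; Ndufa10 (log2 1.80) and Ndufb2 (-2.09), both of complex I, moved in opposite directions. By total reads 4 were called higher and 33 lower, beside the same 4.57% and 25.1% of all genes. With the length and GC trend removed 17 were called higher and 6 lower (median 0.29), beside 12.6% of all genes higher and 9.56% lower. That check covers only 65 of the 83 genes, so its counts cannot be set directly against those over 83. Of 79 cytosolic ribosomal protein genes, 0 rose and 39 fell, with a median of -0.65. Rpl37a, for example, fell from 1750 ± 386 to 435 ± 108 normalized counts. The cytosolic genes had a median annotated length of 886 bases, and with the length and GC trend removed 1 rose and 21 fell (median -0.32).

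Whether the change differed between daughters and sons was tested as an interaction in each tissue. In gWAT the change differed between sexes for 6 of 72 members, beside 8.87% of 10042 genes, and 22 had an unadjusted p under 0.05, beside 26.2%. The male minus female difference was -1.47 for Mrpl47 (adjusted p = 0.0132), -1.29 for Mrps31 (adjusted p = 0.0207) and -0.96 for Mrpl16 (adjusted p = 0.0367), which were higher in nicotine libraries of daughters. It was 1.36 for Mrpl54 (adjusted p = 0.0279), 1.38 for Mrpl52 (adjusted p = 0.0398) and 1.33 for Mrps6 (adjusted p = 0.0433), which were lower there. In sons, Mrpl47 measured 16.3, 24.6, 17.0 and 21.7 normalized counts in the 4 control libraries and 20.4, 16.0, 21.3, 12.7 and 24.0 in the 5 nicotine libraries. The sons' groups overlapped throughout (log2 -0.08 ± 0.27 (SE), adjusted p = 0.9996). Across 72 members the changes of the 2 sexes in gWAT had the same sign for 33.

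In liver the shares of members called by limma were below those of all genes, and the smallest member p-values belonged to Mrps28 in daughters and to Mrps28 and Mrpl21 in sons. Mrps28 (chr3:8802146-8923918, minus strand), the small subunit relative of bacterial S1, was the only member called in daughters. It passed the minimum mean of 10 there, with 12.0, only through the nicotine libraries, where it is high. There it measured 3.88, 12.5, 8.63, 1.90 and 0.91 normalized counts in the 5 control libraries and 26.5, 10.5, 17.2, 17.4 and 20.7 in the 5 nicotine libraries. The groups overlapped, since nicotine library 2 was below the highest control (log2 1.87 ± 0.45 (SE), adjusted p = 0.0255). In sons it measured 9.89, 5.27, 2.66, 5.87 and 2.24 normalized counts in the 5 control libraries and 41.9, 36.3, 42.9, 14.1 and 10.6 in the 5 nicotine libraries. Every nicotine library was above every control there, a mean of 5.19 ± 3.07 in control and 29.2 ± 15.6 in nicotine libraries (log2 2.22 ± 0.46 (SE), adjusted p = 0.113). That control mean is under the minimum of 10, so in sons too Mrps28 was tested only through its nicotine libraries. The counts are low, and Mrps28 overlaps the gene models Gm15467 on the opposite strand and Gm15466 on the same strand. In daughters the call was lost in 6 of 10 fits without 1 library (control 1, 4 or 5, or nicotine 1, 4 or 5), with an adjusted p of up to 0.0688, and without control library 4 and nicotine library 5 (0.116), which held the most muscle transcripts of their groups. In the authors' deposited table the adjusted p of Mrps28 is NA in daughters and 0.00117 in sons, and DESeq2 on recovered reads likewise gave NA in daughters (unadjusted p = 8.14e-05).

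Mrpl21 (chr19:3282901-3292837, plus strand), the counterpart of bacterial L21, was the member whose liver change differed between the sexes. In sons it measured 53.4, 50.6, 62.9, 56.8 and 54.9 normalized counts in the 5 control libraries and 94.2, 77.7, 75.4, 105 and 94.2 in the 5 nicotine libraries. The groups were apart (log2 0.66 ± 0.14 (SE), adjusted p = 0.113, unadjusted p = 0.000272), yet it missed the threshold in limma; DESeq2 on the recovered reads gave an adjusted p of 0.011, and the adjusted p was 0.0186 in the authors' deposited table. In daughters it measured 59.2, 77.2, 60.4, 49.5 and 55.5 normalized counts in the 5 control libraries and 59.0, 51.4, 62.3, 63.3 and 46.5 in the 5 nicotine libraries. Those groups overlapped (log2 -0.09 ± 0.14 (SE), adjusted p = 0.804). The male minus female difference was 0.75 (adjusted p = 0.0454), the only 1 of 74 members called, beside 1.56% of 8699 genes, and without male nicotine libraries 1 and 5 it was 0.69 (adjusted p = 0.117). Those libraries had the lowest hepatocyte marker sums of male liver (70859 and 71563) and fibroblast marker sums of 1601 and 1404, and nicotine library 4 had 1388, against 535 to 680 in controls; the part of this in the result was not tested. Mrps28 and Mrpl21 were the 2 members whose sons' groups did not overlap, both higher, beside 1.31% of all genes. Since Mrps28 was tested there only through its nicotine libraries, this count does not show a trait of the members. Mrpl21 overlaps Ighmbp2 on the opposite strand.

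**Figure D4:**
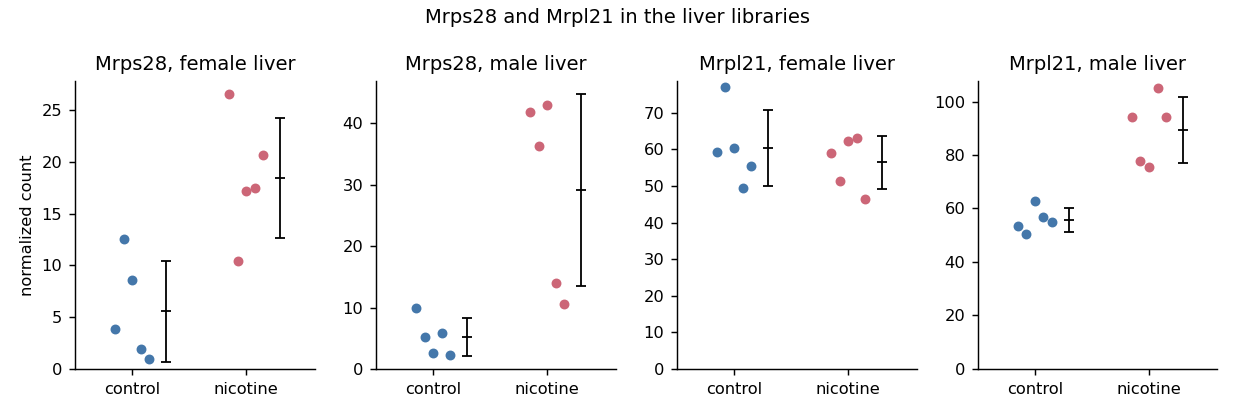
Normalized counts of Mrps28 and Mrpl21 in the female and male liver libraries; each point is 1 library (5 control in blue, 5 nicotine in red), and bars are mean ± SD. Mrps28 lies higher in nicotine libraries of both sexes, and Mrpl21 in those of males, where the groups do not overlap.

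No other liver member passed. In daughters, 5 of 74 had an unadjusted p under 0.05, beside 17.6% of all genes: Mrps28, Mrpl27 (log2 0.32), Mrps2 (-0.28), Mrps26 (0.46) and Mrpl39 (0.29). Among members with a mean of 20 or more, the largest other changes were 0.44 for Mrpl40 and 0.44 for Mrps18a, and the lowest -0.35 for Mrpl32, -0.33 for Mrps6 and -0.33 for Mrps27. The sum of all members was 4007 ± 44.5 in control and 3998 ± 63.4 in nicotine libraries of daughters. In sons it was 4408 ± 249 and 4789 ± 824, and nicotine library 4 alone stood at 6220. That library held the skeletal muscle transcripts named above, and Mrpl12 was 401 in it, against 152 to 222 in the other nicotine libraries. Without it the members' median was -0.02, and without nicotine library 1, without 5 or without both it was 0.12, 0.12 or 0.20. With the length and GC trend removed it was -0.02. The part of muscle in that library's values was not tested. Beside Mrps28 and Mrpl21, 6 members had an unadjusted p under 0.05 in sons and did not pass: Mrpl40 (0.68), Mrps26 (0.52), Mrps6 (0.50), Mrpl54 (0.44), Mrps18c (0.38) and Mrpl17 (0.31), with adjusted p-values from 0.25 to 0.33. The lowest changes there were -0.47 for Mrpl49, -0.32 for Mrpl48 and -0.20 for Mrpl39. Mrpl3, Mrpl12, Mrpl58, Mrps5 and Mrps12 lay between -0.20 (Mrps5) and 0.21 (Mrps12) in sons, and between -0.13 (Mrpl3) and 0.17 (Mrpl12) in daughters. Of the related gene lists, only the cytosolic Rpl17 (log2 0.51) and the respiratory chain gene Atp5f1d (0.36) passed in daughters. None passed in limma in sons. There 76 of 78 cytosolic ribosomal protein genes had a higher mean (median 0.24), beside 4547 of all 9093 genes. In limma 14 of the 78 had an unadjusted p under 0.05, beside 14.5% of all genes. With the length and GC trend removed 63 of 78 were higher (median 0.12), beside 4073 of 8682 genes.

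In sons' gonadal fat no member passed. The smallest p-values belonged to Mrpl30 and Mrpl55. Mrpl30 measured 49.8, 51.9, 51.0 and 70.3 normalized counts in the 4 control libraries and 66.7, 73.4, 65.8, 101 and 78.7 in the 5 nicotine libraries. Control library 4 lay among the nicotine libraries (log2 0.46 ± 0.19 (SE), adjusted p = 0.9996). Mrpl55, a protein specific to mitochondria, averaged 38.8 ± 9.93 in control and 58.8 ± 17.5 in nicotine libraries (log2 0.58 ± 0.25 (SE), adjusted p = 0.9996). Among members with a mean of 20 or more, the other largest changes were 0.65 for Mrps21 and 0.50 for Mrps23, and the lowest were -0.30 for Mrps17, -0.26 for Mrpl3 and -0.21 for Mrpl48. Of 73 members, 54 had a higher mean with nicotine, beside 51.0% of all genes. Nicotine library 5 had the highest member median (0.46 over the control mean), and without it the median change was 0.02; without nicotine library 3 it was 0.19. With the length and GC trend removed, 40 of 73 were higher and the median was 0.02.

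Mrpl37 (chr4:107055874-107066868, minus strand), a large subunit protein without a bacterial counterpart, set 2 male gWAT libraries apart. It measured 8637, 93.8, 255 and 99.9 normalized counts in the 4 control libraries and 6668.5, 75.3, 83.2, 774 and 808 in the 5 nicotine libraries. The 8637 of control library 1 and 6668.5 of nicotine library 1, from 9535 and 6198 reads, stood far above the other 7 libraries, which ran from 75.3 to 808. Mrpl37 made up 64.8% of the sum of all members in control library 1. In the other 3 tables it ranged from 45.3 to 128 and made up 1.13% to 2.56% of that sum. No other gene overlaps it in the annotation used.

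The same 2 libraries held the most epididymal transcripts. Rnase10, a secreted protein of the initial part of the epididymis, was at 2732 and 1976.5 in them and at 0.868 to 483 elsewhere. Lcn8 and Lcn9, epididymal lipocalins, reached 3371 and 3863 in control library 1 and were listed in nicotine library 4 at 801 and 637, where Mrpl37 was 774. In control libraries 2 and 4 and nicotine libraries 2 and 3, where Mrpl37 was lowest, Rnase10, Lcn8 and Lcn9 were each at 7.28 or less. Other epididymal genes did not follow Mrpl37 throughout. In nicotine library 3, where Mrpl37 was 83.2, Spint4 had its highest value, 928, and Adam7 and Lcn5 were at 253 and 62.9. Crisp1 was 3460 in control library 4 and 2520 in nicotine library 3, where Mrpl37 was 99.9 and 83.2. Sums over 7 epididymis markers ran from 38.2 to 27800 in controls and from 1315 to 20452 in nicotine libraries. The high libraries fell on both sides of the comparison, and Mrpl37 did not pass (log2 0.35, adjusted p = 0.9996). Whether epididymal cells carry these Mrpl37 reads was not tested.

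**Figure D5:**
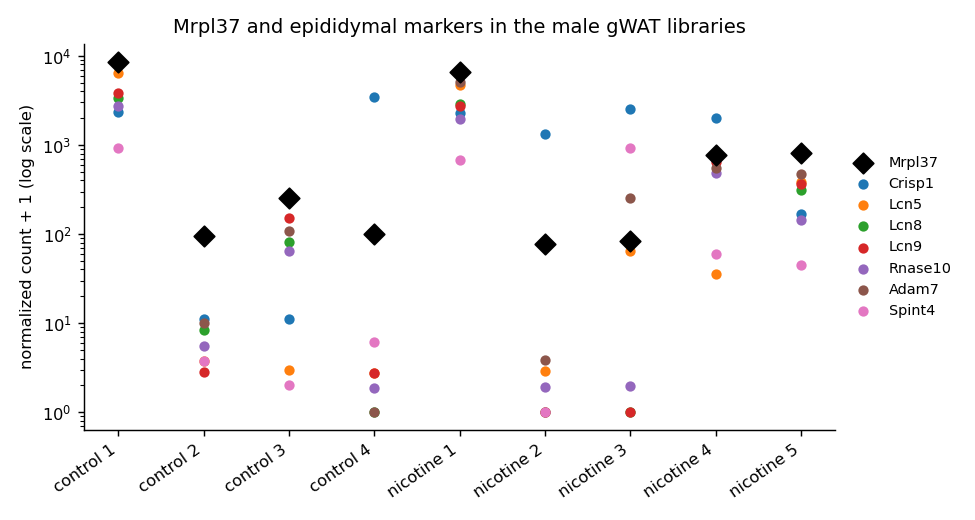
Normalized count + 1 on a log axis for Mrpl37 (black diamonds) and 7 epididymis markers (coloured points) in the 4 control and 5 nicotine libraries of male gWAT. Mrpl37 is at 8637 in control library 1 and 6668.5 in nicotine library 1, where most markers are also highest, and Crisp1 is high in other libraries too.

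Across the 4 tables, 11 of the 72 members tested in all had a higher mean log2 value with nicotine in each: Mrpl10, Mrpl12, Mrpl24, Mrpl27, Mrpl30, Mrpl37, Mrpl44, Mrpl46, Mrps23, Mrps28 and Mrps30. None was lower in all 4. The same count over all genes was not taken, so these numbers do not show a trait of the members. Most of these changes were small and not called; Mrpl30, for instance, had a log2 change of 0.50 in daughters' gWAT, where it passed, and of 0.46 in sons' gWAT, 0.23 in daughters' liver and 0.09 in sons' liver, where it did not. None of the 24 members called in female gWAT was called in either liver, where their log2 changes ran from -0.33 to 0.50, both for Mrps6.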

How the data were processed

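PolyA RNA of 40 labelled samples was sequenced as 3′ tags, and 39 libraries were analysed in 4 tables, one for each tissue and sex. Tools named in the submitters' processing notes are STAR, cutadapt and DESeq2, with the mm10 build and no versions; for the counting, the strand setting and the annotation, the sources used here give nothing. The values are normalized counts (a signal per gene, counts divided by DESeq2 size factors) that the authors deposited together with log2 fold changes, p-values and adjusted p-values of their own test; values were compared only within a table. Dividing each column by the value of 1 read, found from its low values, gave whole reads for 100% of values within 0.1 reads, and the totals were 1543208 to 2239073 reads per library, which limits the precision of low genes.

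The main test was limma 3.58.1 (R 4.3.3) with a mean-variance trend, fitted to log2(normalized count + 1). Genes needed a mean of at least 10, and p-values were adjusted by Benjamini-Hochberg over all genes of a table, with a threshold of 0.05. The fit was tested on simulated data. Sex differences were tested as an interaction. Alternatives were edgeR 4.0.16 and DESeq2 1.42.0 on the recovered reads, pseudocounts of 0.5 and 5, no filter and a minimum mean of 50, quantile normalization, array weights, a replicate block, leaving out libraries, and a wider list with subunit genes of other symbols. Removal of a spline on transcript length and GC content from each library (4 degrees of freedom), scaling by total reads, and leaving out the library pairs that held the most muscle, pancreas, brown fat or epididymis transcripts in male liver, female gWAT and male gWAT were added after seeing the data. Gene positions and lengths come from GENCODE M21 (GRCm38), and promoter windows from RefSeq (GRCm38.p6).

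The members and gene lists were chosen with earlier results of these data known. Named in each table were the members that passed, the 5 of smallest p, the 3 largest and 3 lowest changes among those with a mean of 20 or more, and Mrpl3, Mrpl12, Mrpl58, Mrps5 and Mrps12; of each related list, up to 3 genes that passed or the 1 of smallest p. Mrpl37 and the epididymal genes shown beside it were named after their values were seen, as were genes beyond this rule. Mrpl13, Mrpl15, Mrpl19, Mrpl38, Mrpl4, Mrpl54, Mrps28, Mrps34 and Mrps35 had no promoter entry.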

Additional observations from a re-analysis of the deposited data

Results flagged for a closer look

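In 158 groups of 4 or 5 libraries examined for a single distant library, 14 values stood apart; chance alone sets about 1 in 20 such groups apart. In female liver, Mrpl32 was 46.4 in control library 5 (28.2 to 30.9 in the other controls) and Mrps27 was 51.0 in the same library (26.0 to 33.0), while Mrps6 was 21.2 in control library 2 (37.9 to 43.7). In male liver, nicotine library 4 stood apart in the sum of all members, 6220 against 4166 to 4656, also without Mrpl37 (6117 against 4060 to 4572), and in Mrpl12, 401 against 152 to 222. Mrpl3 was 45.6 in male liver nicotine library 2, against 69.1 to 78.0. In female gWAT, Mrpl1 was 93.6 in nicotine library 3 (47.0 to 51.7 in the others) and Mrpl3 was 85.3 in nicotine library 4 (117 to 129.6 in the others). In male gWAT, Mrpl30 was 70.3 in control library 4 (49.8 to 51.9) and Mrps17 was 104 in nicotine library 5 (74.5 to 77.2). Mrpl37 was 8637 in male gWAT control library 1 (93.8 to 255) and 6668.5 in nicotine library 1 (75.3 to 808), and the member sum of that control library was 13319, against 4396 to 4708.

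The change with paternal nicotine differed between sexes by the interaction test for 7 members. In liver this was Mrpl21, with a male minus female log2 difference of 0.75. In gWAT the differences were -1.47 for Mrpl47, -1.29 for Mrps31, -0.96 for Mrpl16, 1.38 for Mrpl52, 1.36 for Mrpl54 and 1.33 for Mrps6.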

How the results depend on the processing

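Of 1496 alternative values for 70 named results, 1361 kept their direction and side of the threshold, 101 were no longer past it, 4 newly passed and 30 changed sign. The number of genes called in female liver was 181 without control library 4 and nicotine library 5, and 185 to 329 without 1 library; the member count there was 0 at a minimum mean of 50, without those 2 libraries and with DESeq2 (whose adjusted p for Mrps28 is NA), and 0 to 1 without 1 library. In male liver the genes called numbered 0 at a minimum mean of 50, 3 with edgeR, 186 with DESeq2, 3 with the length and GC trend removed, 0 with the replicate block, 54 without nicotine libraries 2 and 4 and 0 to 16 without 1 library, and DESeq2 called 2 members. The interaction in liver called 0 members without male nicotine libraries 1 and 5. Scaling by total reads took the members' median in female gWAT to -0.12.

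Changes of sign were all of values that were not called. In female liver they were Mrpl58 with edgeR (0.0068), with DESeq2 (0.0039), by total reads (0.011) and without control library 4 and nicotine library 5 (0.069), and Mrps12 by total reads (0.013). In male liver they were Mrpl12 with the length and GC trend removed (-0.045) and without nicotine libraries 2 and 4 (-0.23), and Mrpl3 without nicotine libraries 1 and 5 (-0.064). In gWAT they were female Mrpl3 by total reads (-0.16), male Mrpl12 with the length and GC trend removed (-0.024), and male Mrps31 with array weights (0.048) and without control library 1 and nicotine library 1 (0.089). Without 1 library, values ranged from -0.16 to 0.0026 for Mrpl21, -0.15 to 0.097 for Mrpl58 and -0.087 to 0.056 for Mrps12 in female liver. In male liver they ranged from -0.16 to 0.19 for Mrpl12, -0.0083 to 0.19 for Mrpl3 and -0.26 to 0.017 for Mrpl58. In male gWAT they ranged from -0.087 to 0.25 for Mrpl12, -0.18 to 0.042 for Mrpl47, -0.35 to 0.11 for Mrpl58 and -0.50 to 0.063 for Mrps5. The cause of these shifts was not tested.

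Same-numbered libraries of the 2 groups did not deviate together in every pair (correlations from -0.28 to 0.17). Such correlations cannot show whether a number marks a shared father, litter or day, and no label says that it does. With the replicate block, 20 members were called in female gWAT (15 higher, 5 lower, 19 of them among the 24), with 2011 genes, and 341 genes in female liver. No paired analysis was possible in male gWAT because its control columns carry no replicate numbers. Depth limits members under about 10 normalized counts, which were not tested.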
